A study of Homo sapiens with 22 samples.

Results

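The respiratory chain genes are the nuclear genes whose protein products build complexes I to V of the mitochondrial inner membrane, and cytochrome c, which carries electrons between complexes III and IV. They were taken by symbol: every probe set with a single gene symbol beginning with NDUFA, NDUFB, NDUFC, NDUFS, NDUFV, UQCR or ATP5, and the SDH, CYC1, CYCS and COX4 to COX8 genes. This gave 108 of the 19065 probe sets with 1 symbol and 75 of the 11963 genes. Of the 75 genes, 66 encode subunits: 28 of complex I, 3 of complex II, 7 of complex III, 13 of complex IV and 15 of complex V. The other 9 are CYCS (cytochrome c), 5 complex I assembly factors of the NDUFAF series, ATP5IF1 (the inhibitor protein of the ATP synthase), the pseudogene ATP5MC2P1 and the antisense RNA NDUFB2-AS1. The rule uses symbols and no expression value, but it was set with earlier results of these data known.

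RNA came from 6 human B-cell lymphoma lines on 22 Affymetrix HG-U133A arrays. Daudi, Namalwa and Raji are Burkitt lymphoma lines, and SU-DHL4, SU-DHL6 and HT are diffuse large B-cell lymphoma (DLBCL) lines; all were grown in the same medium with fetal bovine serum. Each line was measured untreated and after 6 days of 5-aza-dC (5-aza-2'-deoxycytidine, which blocks DNA methyltransferases), with 625 nM TSA (trichostatin A, which blocks histone deacetylases) added for the last 24 h. The sample titles give 5 µM 5-aza-dC and the protocol gives 3 µM, and the dose used cannot be settled from them. Every group had 2 arrays except those of HT, which had 1 array per treatment. No arm received 1 agent alone, so the agents cannot be told apart, and the labels mention no solvent control. The labels do not say whether duplicate arrays came from separate cultures. The treated Burkitt arrays had been published earlier, per the series design text, and it does not say whether they were run together with the untreated ones.

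The respiratory chain takes electrons from NADH at complex I and from succinate at complex II, passes them through coenzyme Q, complex III and cytochrome c to oxygen at complex IV, and stores the energy as a proton gradient that complex V, the ATP synthase, uses to make ATP. Complexes I, III, IV and V each combine proteins encoded in the nucleus with proteins encoded in mitochondrial DNA, while complex II is encoded in the nucleus alone. Transcription of the nuclear subunit genes is known to involve NRF1, GABP (an ETS-family factor) and YY1, with coactivators of the PGC-1 family, and MYC is known to raise the expression of many mitochondrial genes. None of the 13 subunits encoded in mitochondrial DNA was measured here.

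All 6 B-cell markers measured were bright in untreated cells, with medians over 11 arrays from 8.85 for BLK to 11.55 for MS4A1 on the log2 scale, and all 6 had a lower median in treated cells (CD79A went from 11.11 to 7.84). The 17 markers of T cells, myeloid cells, epithelium, fibroblasts and muscle had untreated medians from 4.23 to 8.19, with only CD3E and COL1A1 above the middle of all genes. Interquartile ranges were 2.31 to 2.59 on untreated arrays and 1.96 to 2.40 on treated arrays, lowest on both treated SU-DHL4 arrays (2.03 and 1.96) and on the second treated SU-DHL6 array (1.99). That SU-DHL6 array also had the largest excess of 3' over 5' signal for ACTB, 2.08, against -0.57 to 0.47 on the other treated arrays. With neither SU-DHL4 nor that SU-DHL6 array in the fit over the lines, 31 of the 34 named genes kept their side of the threshold, and the other 3, all lower with every array, no longer passed: UQCR10 (-0.49, adjusted p = 0.0618), SDHD (-0.33, adjusted p = 0.236) and NDUFB6 (-0.43, adjusted p = 0.0549).

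Promoter sequences were looked up because letters known to bind NRF1, ETS factors and YY1 have been described in genes of this family. Of the 66 subunit genes and CYCS, 58 had an entry of 250 bases before to 50 bases after the gene start in RefSeq (GRCh38.p14). The YY1 letters GCCATNTT, searched on both strands, were found in 19 of the 58 windows (32.8%), against 7.92% of all 15841 protein-coding windows of the same length. The NRF1 letters, GCGCA and GCGC with any 1 base between them, were in 13 of 58 (22.4%, against 8.58%). The ETS letters CCGGAAG were in 17 of 58 (29.3%, against 14.2%). Matches to different motifs could overlap. Genes about as bright as the subunit genes were split by the treatment test below into lower, higher and neither. In these groups 12.3% to 16.4% held the NRF1 letters, 22.6% to 24.6% the ETS letters and 11.6% to 19.1% the YY1 letters. Of the 19 YY1 matches, 14 lay at or after the gene start, and 13 were on the strand opposite to the gene. Read on the gene's strand those 13 hold the letters ATG, and whether they coincide with a start codon was not tested. The windows around the match are shown for 9 genes described below, 8 that fell with treatment and COX6A1 that did not pass the test, as 30 bases on the gene's own strand, 5′ to 3′, with the matching letters in capitals.
NDUFS6 (chr5:1801404-1801433, plus strand): gccagcggcgcAAAATGGCggcggcgatga
NDUFS1 (chr2:206159410-206159439, minus strand): tagccgaggccGCCATATTgaataagcgac
NDUFS7 (chr19:1383913-1383942, plus strand): aggccgaggccAAGATGGCggtgctgtcag
UQCRC1 (chr3:48609605-48609634, minus strand): actgcagctggAAGATGGCggcgtccgtgg
UQCR10 (chr22:29767385-29767414, plus strand): gactgtgaagaAACATGGCggccgcgacgt
COX7B (chrX:77899449-77899478, plus strand): cccggctgaaaGCCATTTTgtttttcagct
COX8A (chr11:63974606-63974635, plus strand): cggccagcgcaGCCATTTTggcttcctgac
COX6A1 (chr12:120438113-120438142, plus strand): agtccagatcaAAAATGGCggtagttggtg
ATP5PB (chr1:111449451-111449480, plus strand): acttgtgagcgGCCATCTTggtcctgccct
In NDUFS6 the match began 9 bases and in NDUFS7 18 bases into the transcript, counting the gene start as 1, while in ATP5PB it began 2 bases and in COX8A 3 bases before the start. The genes shown were chosen after their values were seen.

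The upstream sequence of SDHA, which did not fall with treatment, is shown as 1 example picked after its values were seen. Its 250 bases before the start hold 4 copies of the NRF1 letters and none of the ETS or YY1 letters. The NRF1 letters were about as frequent in subunit genes called lower (21.6%) as in subunit genes and CYCS that did not pass (23.8%). The SDHA sequence lies at chr5:218070-218319 (GRCh38.p14, plus strand), and the capitals mark the NRF1 letters.
SDHA: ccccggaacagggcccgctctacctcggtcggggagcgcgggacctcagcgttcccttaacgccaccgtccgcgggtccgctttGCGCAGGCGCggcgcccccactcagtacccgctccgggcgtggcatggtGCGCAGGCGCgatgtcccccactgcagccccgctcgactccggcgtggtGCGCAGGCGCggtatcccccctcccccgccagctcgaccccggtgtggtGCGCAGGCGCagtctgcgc
The 4 copies are the same 10 letters, spread over this window.

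Over the 6 lines, 48 of the 75 genes were lower after treatment and 0 were higher (limma with line as a block, 12 means of line and treatment, Benjamini-Hochberg adjusted p under 0.05 over all genes). Differences here and below are treated minus untreated on the log2 scale, with the SD over the 6 line differences. Of all 11963 genes, 18.3% were lower and 18.7% higher. At an unadjusted p under 0.05, 1 member, COX7A2L, was higher. Of the 66 subunit genes, 43 were lower (65.2%), 19 of them by 2-fold or more, and 41 of the 66 had a lower mean in every line, which was true of 16.8% of all genes. On 15 subunit genes every treated array lay below every untreated array, against 4.24% of all genes, and on 0 every treated array lay above, against 2.26%. The median of the subunit genes was 10.45 to 10.88 on the untreated arrays and 9.52 to 10.22 on the treated arrays, so that the arrays did not overlap. In such bulk RNA, less RNA per cell and fewer cells carrying it cannot be told apart.

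The share called lower was near that of all genes with probe sets as bright. The shares lower in every line and without overlap of arrays were not computed for such genes. The subunit genes were bright (median untreated level 10.64, against 7.15 for all genes), and 60.9% of the 1279 genes with an untreated level between 9.39 and 11.72, the 10th and 90th percentiles of the subunit genes, were also called lower and 5.47% higher. That range held 52 subunit genes, themselves counted among the 1279, and 36 of those 52 were called lower. The median difference was -0.62 for the subunit genes, -0.73 for the genes of like untreated level and 0.12 for all genes. The fall of the subunit genes as a whole is therefore a value near its background, and the complexes differed from one another around it.

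**Figure D1:**
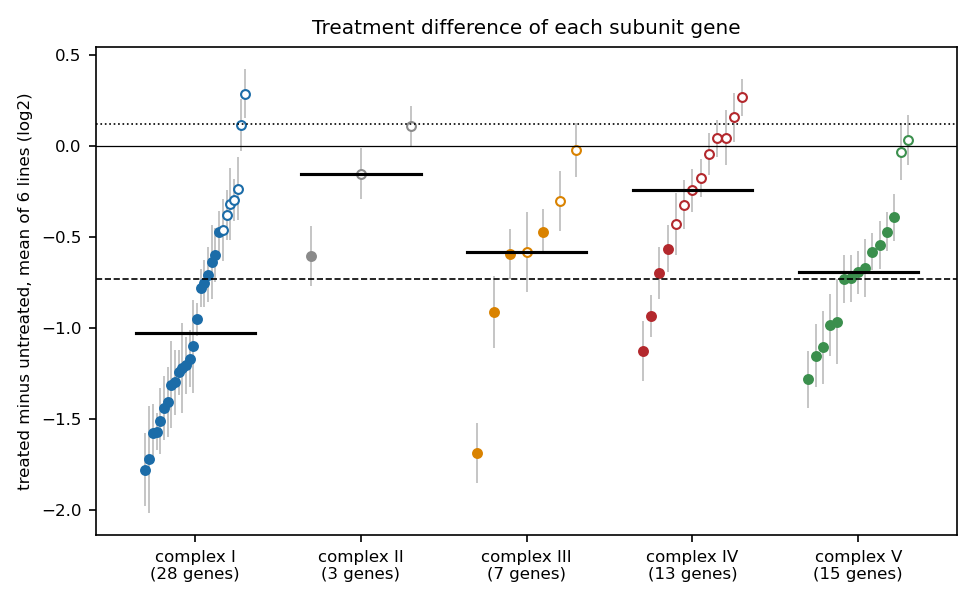
Each point is 1 subunit gene, placed by complex, with the mean over 6 lines of its treated minus untreated log2 difference on the vertical axis and its standard error as a grey bar; filled points passed the test and open points did not. Thick bars mark the complex medians, the dashed line the median of genes of like untreated level (-0.73) and the dotted line that of all genes (0.12); complex I lies lowest (-1.03) and complex IV (-0.24) and complex II (-0.15) highest.

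Complex I, which oxidises NADH and passes its electrons to coenzyme Q, had 21 of its 28 genes lower (75%) and a median difference of -1.03. The 5 genes measured for its core, the part that carries the flavin and iron-sulphur clusters and is shared with bacteria, had a median of -1.41 and 4 were lower. The 23 genes for its accessory subunits, which surround the core, had a median of -0.78 and 17 were lower. On 10 of the 28 genes every treated array lay below every untreated array.

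NDUFS6, an accessory subunit needed late in assembly, had untreated values of 9.85 to 10.59 (median 10.02, 11 arrays) and treated values of 7.52 to 9.07 (median 8.26, 11 arrays). Its groups did not overlap, and it was one of only 2 members that passed the test in every line tested singly, with NDUFC1. The difference was -1.78 ± 0.57 (SD, n = 6 lines; 3.43-fold lower; adjusted p = 0.000836). It ranged from -1.06 in SU-DHL4 to -2.62 in Namalwa.

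NDUFS1, the largest subunit of the core and a carrier of iron-sulphur clusters, ranged from 7.25 to 9.40 (median 8.98) untreated and from 5.37 to 8.18 (median 7.37) treated. The groups overlapped because untreated Daudi was low, and within each of the 5 lines with duplicates both treated arrays lay below both untreated arrays. It fell by 1.72 ± 0.88 (adjusted p = 0.00409), most in SU-DHL4 (-3.20) and SU-DHL6 (-2.27) and least in HT (-0.75). In SU-DHL6 without its second treated array NDUFS1 was at -1.57, and over the lines with neither SU-DHL4 nor that array it was at -1.28.

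NDUFC1, a small membrane-arm subunit, ranged from 9.78 to 10.91 untreated and from 8.21 to 9.59 treated, without overlap, a difference of -1.58 ± 0.45 (adjusted p = 0.000589). NDUFB8 (-1.51 ± 0.51), NDUFS7 (-1.31 ± 0.70), which carries the last iron-sulphur cluster of the chain to coenzyme Q, and NDUFA13 (-1.30 ± 0.50), also known as GRIM-19, fell in the same fit (adjusted p = 0.00106, 0.00534 and 0.00177). The lowest spread between lines among the 19 falls of 2-fold or more was that of NDUFB2, -1.57 ± 0.22, which lay between -1.23 and -1.82 in every line. NDUFB2 was chosen for its spread after its values were seen.

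The 7 complex I genes that did not pass were NDUFA5, NDUFA3, NDUFA8, NDUFB1, NDUFV1, NDUFA2 and NDUFB3, with differences of -0.46 to 0.29. NDUFV1, the core subunit that binds NADH, was among them (-0.23 ± 0.49, adjusted p = 0.296), while NDUFV2, its partner in the same module, fell by 1.44 ± 0.50. NDUFB3 had the highest difference of any subunit gene: its values were 9.53 to 10.43 untreated and 10.05 to 10.90 treated, a difference of 0.29 ± 0.35 (adjusted p = 0.12). NDUFB3 was above its untreated mean in 4 of 6 lines, by 0.73 in HT and 0.62 in Daudi.

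**Figure D2:**
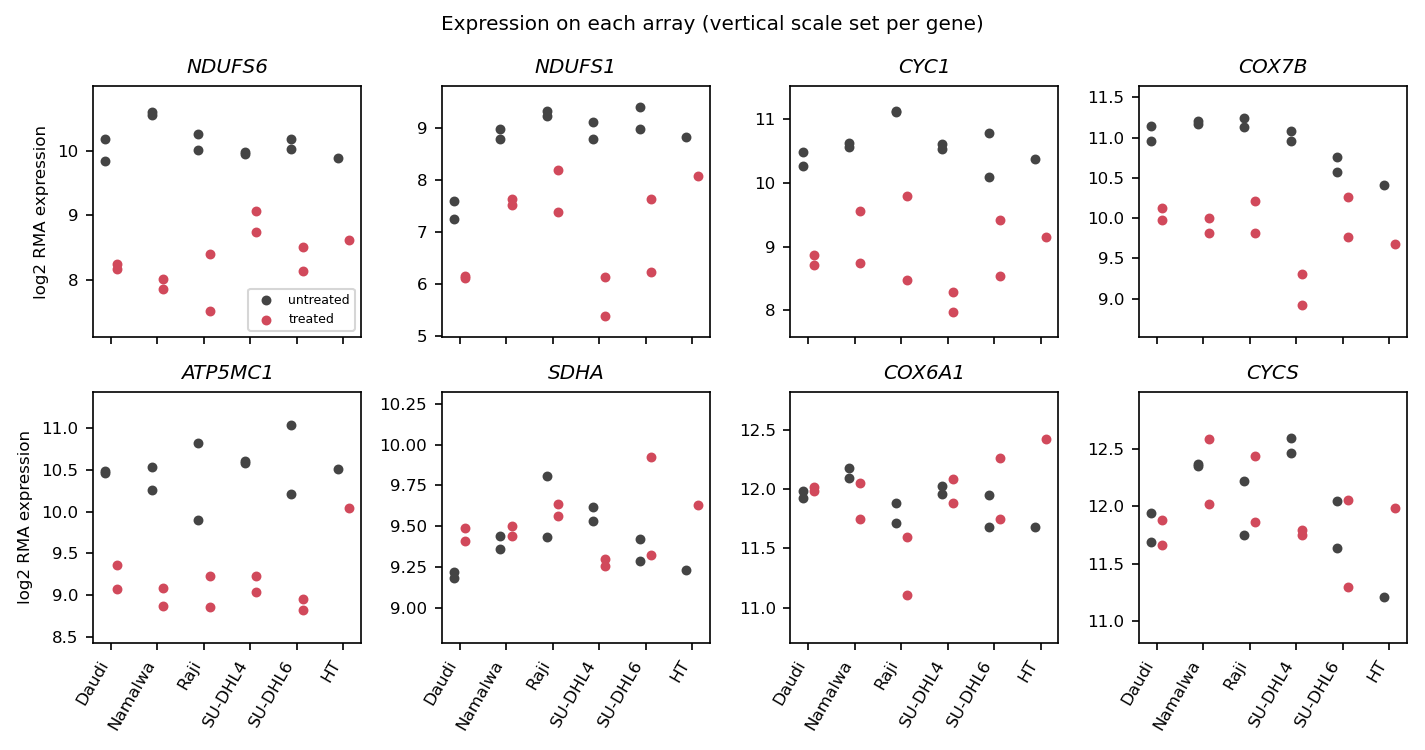
Log2 RMA expression on every array for 8 genes, with the cell line on the horizontal axis, untreated arrays in black and treated arrays in red; the vertical scale is set separately for each gene. Treated arrays lie below untreated arrays of their line for NDUFS6, NDUFS1, CYC1, COX7B and ATP5MC1. For SDHA, COX6A1 and CYCS the direction differs between lines.

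Complex II, succinate dehydrogenase, also an enzyme of the citric acid cycle, had 3 genes measured, of which 1, SDHD, was lower, and a median of -0.15. Its iron-sulphur subunit, SDHB, was not analysed here. SDHA, the flavoprotein that oxidises succinate, had untreated values of 9.18 to 9.81 (median 9.42) and treated values of 9.26 to 9.93 (median 9.49). The 11 treated arrays lay within or just above the untreated range, and the difference was 0.11 ± 0.25 (adjusted p = 0.413). The SDHA probe set is one of 7 used sets, with those of SDHC, COX4I1, COX7C, ATP5F1C, ATP5ME and ATP5MG, whose names mark probes that can also bind other transcripts, and genomic copies of SDHA exist. Quantile normalization and cyclic loess of the deposited values put SDHA past the threshold in the upward direction (0.49 and 0.53).

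SDHC, a membrane anchor, had the widest untreated spread between lines of all 75 genes, 2.28 between the highest and the lowest line mean. It ranged from 8.15 to 10.59 untreated and from 8.23 to 10.59 treated, a difference of -0.15 ± 0.37 (adjusted p = 0.392). The dimmest SDHC probe set was lower (-0.50, adjusted p = 0.0445 over all probe sets), and the other SDHC sets did not pass. SDHD, the other anchor, ranged from 8.76 to 10.24 untreated and from 8.29 to 10.07 treated and fell by 0.60 ± 0.46 (adjusted p = 0.0251), most in SU-DHL4 (-1.32). SDHD did not pass with neither SU-DHL4 nor the second treated array of SU-DHL6 in the fit.

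Complex III, which passes electrons from coenzyme Q to cytochrome c, had 4 of 7 genes lower and a median of -0.58. CYC1, cytochrome c1, the haem protein that hands electrons to cytochrome c, had untreated values of 10.09 to 11.12 (median 10.56) and treated values of 7.98 to 9.80 (median 8.75). Its groups did not overlap. CYC1 fell by 1.69 ± 0.45 (3.22-fold; adjusted p = 0.000507), from -1.22 in HT to -2.44 in SU-DHL4.

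UQCRC1, a core protein, fell by 0.91 ± 0.56 (adjusted p = 0.0104); its lines ranged from -0.09 in Namalwa to -1.60 in SU-DHL6. UQCR10, a small subunit, fell by 0.59 ± 0.36 (adjusted p = 0.0142) with no overlap of arrays (11.30 to 11.79 untreated, 10.04 to 11.30 treated, a gap of less than 0.01), although HT was at -0.00. UQCRB fell by 0.47 ± 0.31. UQCRC2, UQCR11 and UQCRQ did not pass, at -0.58, -0.30 and -0.02. The dimmer UQCRC2 probe set was lower (-0.90, adjusted p = 0.0189 over all probe sets).

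CYCS, the mobile carrier itself, differed from its partner CYC1 in these values. It ranged from 11.21 to 12.60 (median 12.04) untreated and from 11.29 to 12.58 (median 11.88) treated. The groups overlapped over nearly their whole range, and the difference was -0.02 ± 0.50 (adjusted p = 0.945). CYCS was lower in 4 of 6 lines, between -0.76 in SU-DHL4 and 0.77 in HT.

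Complex IV, cytochrome c oxidase, which reduces oxygen, had 4 of 13 genes lower (30.8%) and a median of -0.24. The 13 include the muscle forms COX6A2 and COX7A1, with dimmer probe sets, and COX7A2L. Without these, 4 of 10 were lower (40%), with a median of -0.37. The 4 were COX7B, COX5A, COX8A and COX7C. COX7B had untreated values of 10.42 to 11.24 (median 11.08) and treated values of 8.92 to 10.26 (median 9.82), without overlap, and fell by 1.13 ± 0.45 (adjusted p = 0.00218). COX5A, a subunit on the matrix side, went from 11.30 to 11.92 untreated to 9.90 to 11.14 treated, also without overlap, and fell by 0.93 ± 0.28 (adjusted p = 0.00122). COX8A fell by 0.70 ± 0.38 (adjusted p = 0.00844) and its arrays overlapped by less than 0.01.

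The other 9 complex IV genes had differences of -0.43 to 0.27. COX6A1, the widely expressed form of subunit 6A, had untreated values of 11.68 to 12.18 (median 11.95) and treated values of 11.10 to 12.42 (median 11.98). Its treated arrays lay on both sides of the untreated range, low in Raji and high in HT, and the difference was 0.05 ± 0.41 (adjusted p = 0.81). COX4I1, a regulatory subunit, did not pass with its brightest probe set (-0.18 ± 0.24), while its second set was lower (-0.34, adjusted p = 0.0422 over all probe sets) and its dimmest set was higher (0.39, adjusted p = 0.0136). COX7A2L, which links complexes III and IV into supercomplexes, had a higher mean in 5 of 6 lines (0.27 ± 0.21, adjusted p = 0.0664). After quantile normalization and after cyclic loess COX7A2L and NDUFB3 passed the threshold upward.

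COXFA4, formerly NDUFA4 and now counted with complex IV, carries a symbol outside the selection. It was lower in 6 of 6 lines (-0.58 ± 0.18, adjusted p = 0.00299).

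Complex V, the ATP synthase, had 13 of 15 genes lower (86.7%) and a median of -0.69, and ATP5PD and ATP5MJ were the ones that did not pass (-0.03 and 0.03). All 5 genes of the catalytic F1 head and central stalk were lower, with differences of -0.39 for ATP5F1B, the catalytic beta subunit, to -1.10 for ATP5F1D, the delta subunit. Of the 4 peripheral stalk genes, which hold the head against the rotor, 3 were lower, and of the 3 other membrane genes 2 were. On 1 of the 15 genes, ATP5PO, the treated and untreated arrays did not overlap.

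ATP5MC1, one of 3 genes for the c subunit of the rotor ring, had untreated values of 9.90 to 11.04 (median 10.51) and treated values of 8.82 to 10.04 (median 9.07). The overlap came from the treated HT array and 1 untreated Raji array. It fell by 1.28 ± 0.43 (adjusted p = 0.00113). ATP5PB, the b subunit of the peripheral stalk, went from 11.13 to 12.02 (median 11.78) untreated to 9.51 to 11.41 (median 10.45) treated and fell by 1.15 ± 0.49 (adjusted p = 0.00255). ATP5F1D fell by 1.10 ± 0.57 (adjusted p = 0.00498).

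The inhibitor ATP5IF1, which blocks the ATP synthase when it runs in reverse, fell by 0.95 ± 0.57 (adjusted p = 0.00897). Of the 5 NDUFAF assembly factors, NDUFAF4, NDUFAF3 and NDUFAF7 were lower (NDUFAF4 at -1.14 ± 0.58), and NDUFAF1 and NDUFAF5 were at -0.10 and 0.12.

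Paralogous genes were compared within lines. The 3 ATP5MC genes encode the same mature c subunit with different import sequences. Their differences were -1.28 for ATP5MC1, -0.96 ± 0.68 for ATP5MC2 (adjusted p = 0.0162) and -0.73 ± 0.34 for ATP5MC3 (adjusted p = 0.00486). ATP5MC1 was below ATP5MC3 in 6 of 6 lines, with a gap of -0.55 ± 0.21 (95% interval -0.77 to -0.33). The exact two-sided sign-flip test over 6 lines gave p = 0.0312, the smallest it can give, and 0.109 after Benjamini-Hochberg adjustment over the 7 pairs measured. ATP5MC2 was -1.80 in Namalwa and -0.10 in Daudi, and its difference from ATP5MC3 was -0.23 ± 0.84 (exact p = 0.562). That difference changed sign with the mean of probe sets in place of the brightest set.

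Of the muscle forms, COX7A1 and COX6A2 had probe sets at untreated medians of 5.72 and 7.63 and differences of 0.04 ± 0.23 and 0.16 ± 0.35. COX6A1 minus COX6A2 was -0.11 ± 0.20 (95% interval -0.32 to 0.10, exact p = 0.219). COX7A2 minus COX7A1 was -0.36 ± 0.46 (-0.85 to 0.12, exact p = 0.156), and COX7A2 minus COX7A2L was -0.59 ± 0.54 (-1.16 to -0.02, exact p = 0.0938, lower in 5 of 6 lines). COXFA4 was below COXFA4L2 in 6 of 6 lines, with a gap of -0.51 ± 0.12 (exact p = 0.0312, adjusted 0.109). None of the 7 pairs passed 0.05 after adjustment.

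Set beside one another, the complex medians ran from complex I (-1.03) through V (-0.69), III (-0.58) and IV (-0.24) to II (-0.15). Complex IV was at -0.37 without COX6A2, COX7A1 and COX7A2L. Brightness differed between complexes, so each gene was also set against the median of all genes in its band of untreated level. By that measure complex I lay at -0.35, with 18 of 27 genes below their band, complex V at 0.03, complex III at 0.23, complex II at 0.40 and complex IV at 0.50, with 9 of 11 genes above their band. The complex I median was below the complex IV median in 6 of 6 lines, with gaps of -0.43 in HT to -0.96 in SU-DHL4 and of -0.78 over the mean of the lines. With neither SU-DHL4 nor the second treated array of SU-DHL6 the complex medians were -0.86 (I), -0.14 (II), -0.47 (III), -0.20 (IV) and -0.57 (V). In SU-DHL6 alone they were -1.13, -0.26, -0.66, -0.34 and -0.59 with both treated arrays and -0.82, 0.39, -0.28, -0.07 and -0.49 without the second, so that complex II changed sign there. These gaps were chosen after seeing the values and carry no test. Over the 66 subunit genes the difference had no clear relation to the untreated level (Pearson r = -0.03, Spearman rho = 0.06; across genes that share arrays, so a description only).

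**Figure D3:**
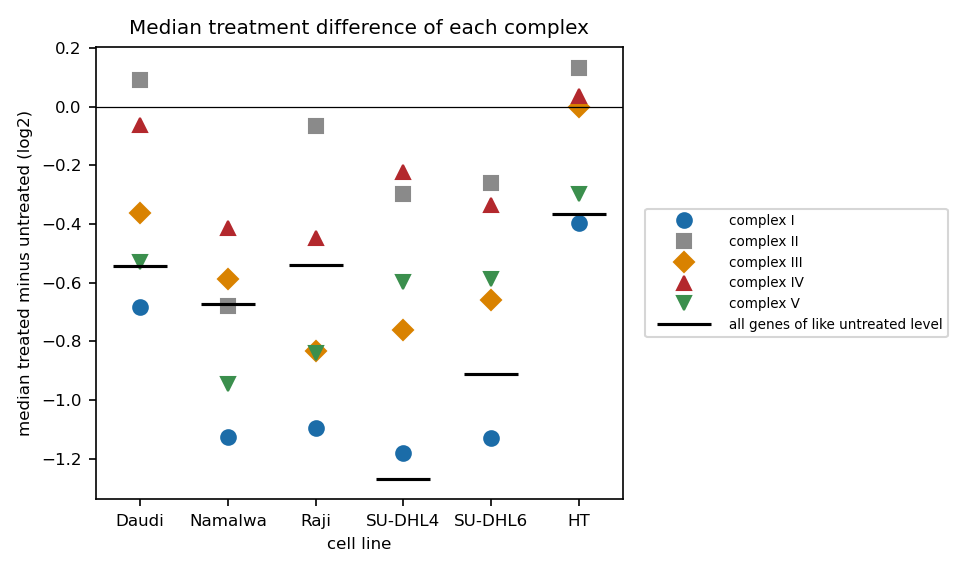
Median treated minus untreated log2 difference of each complex (vertical axis) in each cell line (horizontal axis), with a black bar at the median of all genes of like untreated level. Complex I lies below complex IV in each line, and in SU-DHL4 the black bar (-1.27) lies below all 5 complexes.

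Scaling of the arrays changed the number of calls. With quantile normalization of the deposited values 30 genes were lower and 3 higher, and with cyclic loess 29 lower and 5 higher; the 29 were lower under all 3 scalings, and 17 of them were complex I subunits. The others of the 29 were CYC1, COX5A, COX7B, ATP5F1D, ATP5PB, ATP5PO, ATP5MC1, ATP5MC3, ATP5IF1, NDUFAF4, NDUFAF7 and ATP5MC2P1. The medians of complexes II and IV changed sign, to 0.20 and 0.06 with quantile normalization and 0.23 and 0.09 with loess. Complex I stayed lowest, at -0.69 and -0.65, and was below complex IV in 6 of 6 lines under each scaling. The share of subunit genes called lower was 39.4% and 37.9%, and of genes of like level 42.9% and 42.1%.

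**Figure D4:**
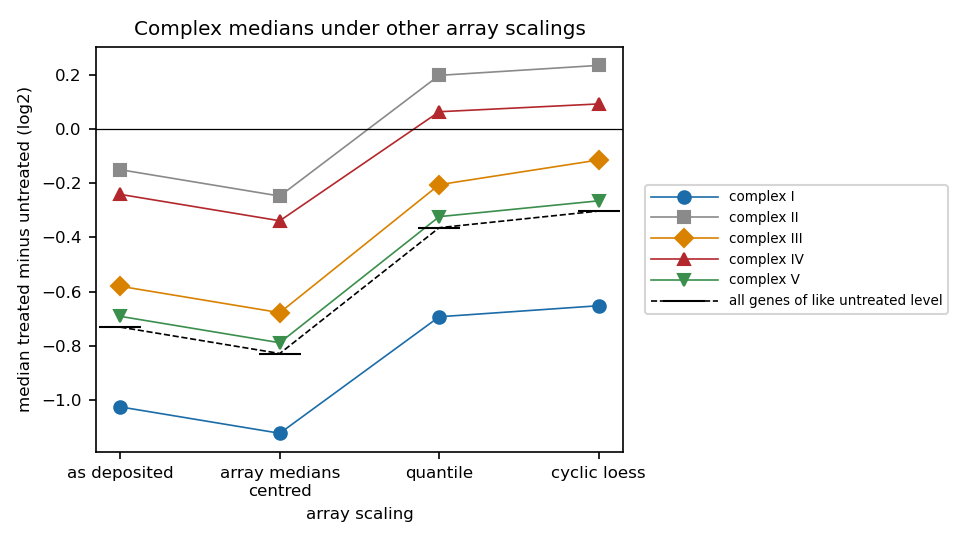
Median treated minus untreated log2 difference of each complex (vertical axis) with the values as deposited and after 3 further scalings of the arrays (horizontal axis), with the median of genes of like untreated level as a dashed line. The order of the complexes is the same at each scaling, while complexes II and IV cross 0.

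**Figure D5:**
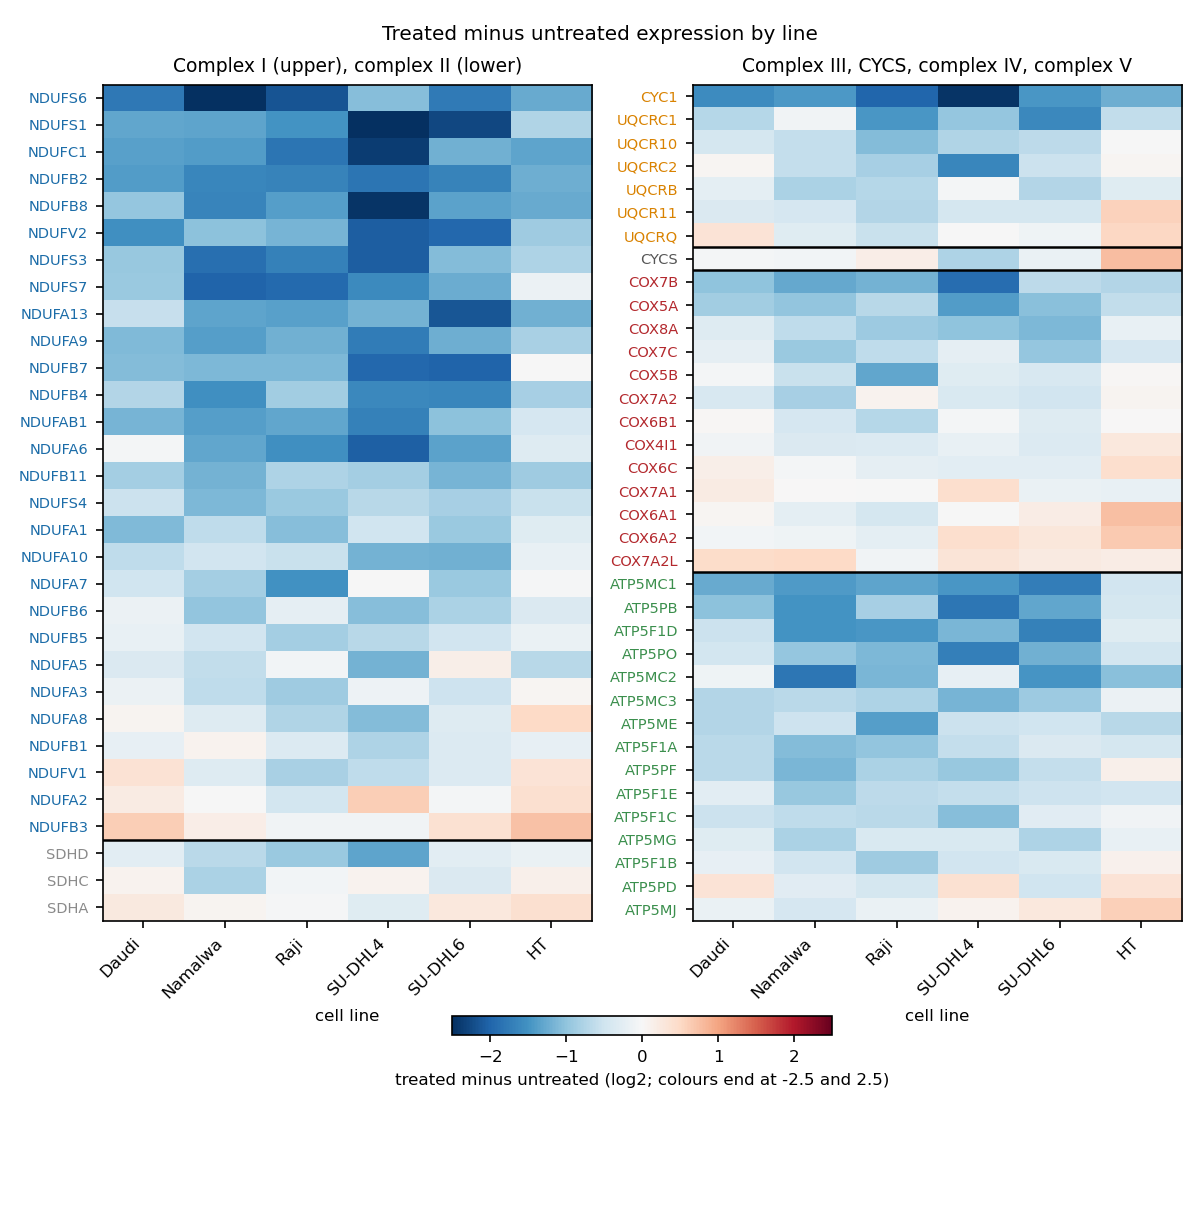
Treated minus untreated log2 difference of each of the 66 subunit genes and CYCS in each cell line, blue for lower and red for higher after treatment, grouped by complex and sorted within it. Complex I genes are blue in nearly all lines, and HT, at the right of each panel, is the palest.

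In single lines (22 arrays, 12 group means, limma), the members lower numbered 22 in Daudi, 42 in Namalwa, 36 in Raji, 46 in SU-DHL4, 38 in SU-DHL6 and 3 in HT. The shares of all genes lower were 10.2%, 13.2%, 10.2%, 24.1%, 16.8% and 2.51%. HT, with 1 array per treatment, was assumed to vary like the other lines. Of the genes of like untreated level, 37.5% were lower in Daudi, 45.7% in Namalwa, 32.8% in Raji, 72.4% in SU-DHL4, 58.3% in SU-DHL6 and 7.9% in HT. The subunit genes were lower in 30.3%, 59.1%, 51.5%, 60.6%, 51.5% and 4.55%, so that they exceeded that background in Namalwa and Raji and were below it in the other lines.

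The 3 genes lower in HT were NDUFC1 (-1.32), NDUFS6 (-1.26) and NDUFA13 (-1.20). The largest falls elsewhere were NDUFS6 (-1.79) and CYC1 (-1.57) in Daudi, NDUFS6 (-2.62) and NDUFS7 (-1.9997) in Namalwa, NDUFS6 (-2.17) and CYC1 (-1.98) in Raji, NDUFS1 (-3.20) and NDUFB8 (-2.45) in SU-DHL4 and NDUFS1 (-2.27) and NDUFA13 (-2.15) in SU-DHL6. Without the second treated SU-DHL6 array the largest falls there were NDUFA13 (-1.97) and NDUFB7 (-1.91), and NDUFS1 was at -1.57. Across lines, 2 genes were lower in 6 lines, 16 in 5, 9 in 4, 9 in 3, 12 in 2, 8 in 1 and 19 in 0. Rises were called for NDUFB3 in Daudi (9.66 and 9.53 untreated, 10.21 and 10.22 treated; adjusted p = 0.0197) and for NDUFB2-AS1 in SU-DHL6 (0.67, adjusted p = 0.0184), against 10.8% and 16% of all genes higher in those lines. The NDUFB2-AS1 call was lost without the second treated SU-DHL6 array (0.43, adjusted p = 0.194), and in Daudi 0 members were higher without any 1 of its 4 arrays and with arrays centred on their medians. NDUFB2-AS1, an RNA antisense to NDUFB2 read by its own probe set, differed by 0.21 ± 0.27 over the 6 lines (adjusted p = 0.161). At an unadjusted p under 0.05, 1 member was higher in Namalwa, 0 in Raji, 0 in SU-DHL4 and 4 in HT. The share of all genes at that unadjusted threshold is not given. At the adjusted threshold 0 members were higher in these 4 lines, against 10.9%, 5.61%, 35.6% and 2.21% of all genes. Scaling changed the counts of members, and the shares of all genes called in single lines under these scalings are not given. In SU-DHL4, quantile normalization gave 22 members lower and 17 higher and loess 22 lower and 19 higher. In SU-DHL6 they gave 23 lower and 7 higher and 24 lower and 6 higher. After the same scalings 6 and 6 members were higher in Daudi, 2 and 4 in Namalwa and 3 and 3 in HT.

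Single arrays moved these counts. Beside the single-line counts below, a share of all genes is given for SU-DHL6 only, and there only for genes lower. The single-line fit estimates the spread of a gene from all arrays, so an array of 1 line also affects calls in other lines. Leaving out the first treated SU-DHL6 array gave the most members lower in Daudi, Namalwa, Raji, SU-DHL4 and SU-DHL6. Without its second treated array, the one with the 3' excess, SU-DHL6 had 25 members lower and 4 higher (NDUFB3, SDHA, ATP5MJ and NDUFAF1), 10.5% of all genes lower and a subunit median of -0.40 in place of -0.69. Daudi had 9 lower without its first treated array and 10 without its first untreated array, Namalwa 25 without its first treated array and 22 without either untreated array, and Raji 19 without its first treated and 23 without its second untreated array. Over the 6 lines, with both SU-DHL4 groups and that treated SU-DHL6 array left out, 39 members were lower, all among the 48, against 14.6% of all genes.

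Burkitt and DLBCL lines were compared in the size of the treatment effect, on 6 line differences. The median effect over the 75 genes was -0.63 in Burkitt and -0.53 in DLBCL lines, and 0 members differed after adjustment (limma, smallest adjusted p = 0.439; 0.00836% of all genes were higher and 0% lower). At an unadjusted p under 0.05 there were 4 members (5.33%), against 11% of all genes. With arrays in place of lines as units, 4 members and 12.4% of all genes were called. Within Burkitt lines alone 26 members were lower (8.39% of all genes) and within DLBCL lines alone 15 (8.24%), all of them among the 48.

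The smallest p among members was that of COX6A2, at -0.14 in Burkitt and 0.46 in DLBCL lines (adjusted p = 0.439), followed by ATP5MJ at -0.25 and 0.31 (adjusted p = 0.441). In the other direction were ATP5IF1, at -0.65 and -1.26 (adjusted p = 0.513), and NDUFB1, at -0.15 and -0.44 (adjusted p = 0.579). Untreated Burkitt and DLBCL lines differed in 0 members (limma, smallest adjusted p = 0.753; 5 members, 6.67%, at an unadjusted p under 0.05, against 5.43% of all genes). The gaps with the smallest p were lower in Burkitt lines for ATP5IF1 (9.85 against 10.54) and NDUFB6 (10.00 against 10.45), and higher for COX7B (11.14 against 10.70) and NDUFAF4 (9.30 against 8.79).

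Probe sets of 1 gene did not always move alike. Fitted singly, 65 of the 108 member probe sets were lower and 1 higher, against 16.7% and 15.6% of all probe sets. In 8 genes (ATP5F1C, ATP5MC2, ATP5MG, COX7C, NDUFB7, NDUFB8, SDHD and UQCRB) the brightest set passed and another did not. For NDUFB8 the second set was also lower (-1.29) and the other, far dimmer, was at -0.15. For ATP5MC2 the other set was at 0.10, and for SDHD at 0.25. For ATP5MJ, in contrast, the second set was lower (-0.50, adjusted p = 0.0296) and the brightest was at 0.03. A dimmer set was also lower, and the brightest did not pass, for UQCRC2 (-0.90, adjusted p = 0.0189), COX5B (-0.57, adjusted p = 0.0415) and SDHC (-0.50, adjusted p = 0.0445). In the authors' deposited table, 78 of the 108 member probe sets had an adjusted p under 0.05 with a negative difference and 6 with a positive one, against 22.3% and 34.6% of all probe sets.

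Genes that work with the chain were described from lists. Of all genes 18.3% were called lower, and of the genes of like untreated level to the subunits 60.9% (median -0.73). Many listed genes were dimmer than the subunits. Of all genes at untreated levels of 8 to 9, 32.9% were lower (median -0.21), and at 9 to 10, 51.7% (median -0.55). Of 33 assembly factors measured, 5 of them also members, 16 were lower (48.5%) and 0 higher, with a median of -0.39; ECSIT and TMEM126B, which assemble the membrane arm of complex I, differed by -1.22 ± 0.26 and -1.34 ± 0.50 (adjusted p = 0.000411 and 0.0015). Of 17 citric acid cycle genes 10 were lower (58.8%, median -0.72), among them SUCLG2, a subunit of succinyl-CoA ligase (-2.19 ± 0.56), and DLAT of pyruvate dehydrogenase (-1.53 ± 0.42). Of 9 carriers and coupling genes 5 were lower (55.6%, median -0.41), with VDAC1, the outer membrane channel, at -2.05 ± 0.62 and UCP2 at -0.82 ± 0.36. Of 51 mitochondrial ribosomal protein genes, whose products translate the subunits encoded in mitochondrial DNA, 42 were lower (82.4%, median -1.14), led by MRPL23 (-2.13) and MRPL12 (-2.10).

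Genes of coenzyme Q synthesis and of other electron entry into coenzyme Q, taken as 1 list, were mixed. Of 17 such genes 7 were lower (41.2%), 3 higher and 7 did not pass (median -0.21). PDSS1, which makes the tail of coenzyme Q, fell by 1.60 ± 0.54 and ETFA, of the electron transfer flavoprotein, fell by 0.91 ± 0.73. SQOR, sulphide quinone oxidoreductase, rose by 1.38 ± 0.65 (adjusted p = 0.00341) and COQ8A by 0.997 ± 0.415 (adjusted p = 0.00268), each in 6 of 6 lines.

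Of 20 regulators of mitochondrial biogenesis and mitochondrial DNA, 11 were lower (55%) and 0 higher (median -0.50). MYC had the largest fall, from a mean of 10.45 to 7.20 (-3.25 ± 0.94, adjusted p = 0.000516), and PPRC1, a PGC-1 family coactivator, fell by 1.74 ± 0.30. The next 5 were picked from the same list after their values were seen. TFAM, which packages and transcribes mitochondrial DNA, fell by 1.72 ± 0.72 (adjusted p = 0.00203), GABPA fell by 1.08 ± 0.59 (adjusted p = 0.00615) and NRF1 fell by 0.27 ± 0.17 (adjusted p = 0.0475). YY1 was at -0.80 ± 0.89 (adjusted p = 0.0673) and PPARGC1A at 0.26 ± 0.26 (adjusted p = 0.1), with a dim probe set.

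Set against the calls, the YY1 letters were in the windows of 17 of 37 subunit genes called lower (45.9%) and of 2 of 21 subunit genes and CYCS that did not pass (9.52%). Of all genes called lower 17.5% held them, of called-lower genes of like untreated level 19.1%, of like-level genes that did not pass 11.6%, and of all genes that did not pass 7.73%. The NRF1 letters were in 21.6% and 23.8% of the same subunit groups and the ETS letters in 27% and 33.3%. By complex, the YY1 letters were in 11 of 27 windows of complex I, 2 of 5 of complex III, 3 of 11 of complex IV and 3 of 12 of complex V. These shares describe letters in a window and carry no test.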

How the data were processed

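RNA of 22 samples was measured on HG-U133A arrays. The deposited values are log2 expression made by the authors with RMA, per the series design text and the submitters' processing notes (R 2.10.1); the authors' p-values and log2 differences were deposited as well, and the sign of the latter was checked against treated minus untreated means. A genome build is not given in the sources used here. Groups and replicate numbers came from the sample labels. Control probe sets (68) and those with several (1043) or no (2107) symbols were left out, and each of the 11963 genes was read by the probe set brightest on average.

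Treatment was tested over 6 lines with limma 3.58.1 in R 4.3.3 on line means with line as a block, per line on all 22 arrays, and between lymphoma kinds on 6 line values, all two-sided with Benjamini-Hochberg adjustment over all genes at 0.05; errors are SDs over lines. P-values measure only the spread between these samples. The number of arrays limits the precision. The fits were tested on simulated data. The members and lists were chosen with earlier results of these data known. Comparisons by brightness, between complexes I and IV, of calls shared between scalings and of promoter letters were added after seeing the data. Named genes were, by rule, those with the largest falls or rises per complex and line, all of complex II, CYCS, listed paralogues, the smallest p between lymphoma kinds, and genes with probe sets called in opposite directions; other names are given by count or range, or were chosen after their values were seen.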

Additional observations from a re-analysis of the deposited data

Results flagged for a closer look

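For COX6A2, the muscle form of a complex IV subunit, the treatment difference was negative in the 3 Burkitt lines (-0.06, -0.11 and -0.24 in Daudi, Namalwa and Raji) and positive in the 3 DLBCL lines (0.42, 0.29 and 0.66 in SU-DHL4, SU-DHL6 and HT), a Burkitt minus DLBCL difference of -0.59 (limma on 6 line differences, adjusted p = 0.439). For ATP5MJ, a small membrane subunit of complex V, the lines split the same way (-0.16, -0.42 and -0.16 against 0.09, 0.25 and 0.59), a difference of -0.56 (adjusted p = 0.441). Neither difference passed the test over all genes. Among the 39 named genes and complexes, 0 had a line far outside the other 5.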

How the results depend on the processing

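Over the 6 lines, 48 members were lower and 0 higher. Quantile normalization gave 30 lower and 3 higher, cyclic loess 29 and 5, Burkitt lines alone 26 lower and DLBCL lines alone 15 lower; the last are fits on fewer lines. Higher members numbered 2 with 22 arrays and line as an additive term, 1 over all probe sets and 1 with the replicate block. Leaving out 1 line or array gave 41 to 50 lower and 0 to 1 higher. Complex medians, -1.03 (I), -0.15 (II), -0.58 (III), -0.24 (IV) and -0.69 (V), became -0.69, 0.20, -0.21, 0.063 and -0.32 with quantile normalization and -0.65, 0.23, -0.11, 0.092 and -0.27 with loess; the cause was not tested. The median of all genes was 0.12 as deposited, 0.02 with arrays centred, 0.08 with quantile normalization and 0.04 with loess. The counts in single lines that follow are of members only, without the share of all genes called in the same fit. In single lines, quantile normalization and loess gave 6 and 6 members higher in Daudi, 2 and 4 in Namalwa, 17 and 19 in SU-DHL4, 7 and 6 in SU-DHL6 and 3 and 3 in HT, and 22 and 22 lower in SU-DHL4 and 23 and 24 lower in SU-DHL6. Centring gave 0 higher in Daudi and 5 lower in HT, leaving out dim genes 0 higher in SU-DHL6, and the mean of probe sets 1 higher in SU-DHL4, 2 higher in SU-DHL6 and 5 lower in HT. Leaving out 1 array gave 9 to 26 lower and 0 to 1 higher in Daudi, 22 to 49 and 0 to 1 in Namalwa, 19 to 48 lower in Raji, 33 to 48 and 0 to 2 in SU-DHL4, 25 to 57 and 0 to 4 in SU-DHL6 and 1 to 5 and 0 to 1 in HT. With arrays as units, 4 members differed in effect between Burkitt and DLBCL lines. With the mean of probe sets, the difference of ATP5MC2 from ATP5MC3 was 0.33. Arrays of 1 line with the same replicate number did not deviate together (correlations of -0.12 to 0.03); with the replicate block the members higher were 0 in Daudi, 1 in SU-DHL4 and 0 in SU-DHL6. Of the named genes, DLBCL lines alone took the adjusted p of COX7B to 0.0672 and of ATP5MC1 to 0.0528.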
